A study of Danio rerio with 5 samples.

Results

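The mitochondrial ribosomal protein genes of zebrafish (Danio rerio) were followed through 5 RNA sequencing libraries of whole embryos. Members were all genes whose symbol in the deposited tables, read in lower case, begins with mrpl or mrps and a digit. The rule found 76 of 32520 genes, 47 with an mrpl symbol and 29 with an mrps symbol, and used no measured value. All 76 had counts in every library, from 4 to 3435 reads per gene and library, and all 76 were among the 16445 genes that passed the filter on low counts. MRPL49 and MRPS12 are spelled in capitals because the tables spell them so.

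Embryos were collected at 4 hours after fertilisation, at the late blastula, and the question of the study was how many guides can share an injection. RfxCas13d, a nuclease that an RNA guide directs to a transcript, is named in the labels of every library. The pool of 10 was 1 library of RfxCas13d knockdown embryos given a guide against szrd1 and 9 other guides. The pool of 25 was 1 library of RfxCas13d knockdown embryos given the szrd1 guide and 24 other guides. The controls were 3 libraries of embryos labelled RfxCas13d control, replicates 1 to 3. The labels name neither a strain nor what the remaining guides target, so whether a member was among their targets is not known here. Nor do they tie the controls to separate clutches, so a p-value here covers only how these libraries scatter, and that scatter may be technical.

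Mitochondria keep a ribosome of their own, which translates the few proteins encoded by the mitochondrial genome, all of them parts of the respiratory chain and the ATP synthase. Its ribosomal RNAs come from the mitochondrial genome, whereas its proteins are encoded in the nucleus, made in the cytosol and imported. Some of these proteins have counterparts in the bacterial ribosome and others are found only in mitochondria. The letters L and S in the symbols stand for the large and small subunit, although in the human particle MRPS30 and MRPS18A lie in the large subunit, and MRPS36 was later assigned to the 2-oxoglutarate dehydrogenase complex.

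The libraries held 6872714 gene counts for the pool of 10, 6528043 for the pool of 25 and 13104114, 14179837 and 5283761 in control replicates 1 to 3. Per the labels' protocols, both pools and control 3 were prepared at 1/8 of the kit's reaction volume, and controls 1 and 2 at 1/4. Reads that mapped nowhere made up 44.0% in control 3 and 13.1% to 21.0% in the other 4 libraries. The targeted gene szrd1 had 41.3 CPM (pool of 10) and 45.6 CPM (pool of 25), against 221, 278 and 311 CPM in the controls, where CPM are counts relative to a common library total after TMM scaling. Its fitted log2 fold change in both pools was -2.63 ± 0.40 (SE), with an adjusted p of 0.232 in edgeR's quasi-likelihood test with Benjamini-Hochberg adjustment over all genes tested. The blastula genes nanog, pou5f3 and sox19b had counts in all 5 libraries.

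In TPM, which is scaled for transcript length and so can be compared between genes, members were well represented in the embryos. Their mean over the 3 controls ran between 2.97 and 353.8 TPM with a median of 65.7 TPM, against a median of 11.5 TPM over all genes tested, and 72 of 76 members lay above that gene median. A mean above 100 TPM was seen for 19 members and one below 10 TPM for 4. Summed TPM of all members was 4890 (pool of 10) and 4572 (pool of 25), against 6938, 6366 and 4597 TPM in controls 1 to 3. The sum of control 3 thus lay beside those of the pools, below those of the other controls. In a bulk library, fewer cells of a type and less RNA per cell cannot be told apart.

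The 8 most abundant members carried 30.9% of the summed control TPM of the family. The highest was mrpl34, the counterpart of a small basic protein in the core of the bacterial large subunit, with 376 and 262 TPM in the pools of 10 and 25, against 428, 342 and 292 TPM in the controls. It was followed by mrps18a, one of 3 vertebrate relatives of bacterial S18, with 127 and 177 TPM in the pools of 10 and 25, against 356, 312 and 210 TPM in the controls. A second S18 relative, mrps18b, had 171 and 174 TPM in the same pools and 253, 225 and 175 TPM in the controls. For mrps18a and mrps18b both pools lay below all 3 controls, while for mrpl34 the pools overlapped the controls. The control means of the next 5, mrps36, mrpl48, mrps22, mrpl44 and mrpl3, lay between 190 and 207 TPM with SDs of 31.0 to 78.3 TPM (n = 3), so their order is within the spread. mrpl44, whose human protein has an RNase III fold and sits near the peptide exit tunnel, had 156 and 166 TPM in the pools of 10 and 25, against 236, 205 and 133 TPM in the controls.

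At the low end stood mrpl53, mrpl45, mrpl4, mrpl22, mrpl52 and mrpl58. The lowest, mrpl58, encodes a peptidyl-tRNA hydrolase built into the human large subunit that rescues stalled ribosomes. It had 1.91 and 3.81 TPM in the pools of 10 and 25, against 3.07, 3.96 and 1.88 TPM in the controls, with no separation of the groups. mrpl4 and mrpl22, whose bacterial counterparts line the exit tunnel, had control means of 9.47 ± 4.51 and 7.84 ± 3.12 TPM (SD, n = 3). In CPM, which is not scaled for transcript length, their control means were 6.75 and 35.0, so mrpl22 was low in TPM only. Members with small-subunit symbols had the higher median level, 63.7 TPM in the pools and 86.3 TPM in the controls. Those with large-subunit symbols had 37.1 TPM in the pools and 42.2 TPM in the controls. This split is by symbol, so mrps18a, mrps30 and mrps36 count as small subunit. The order of the members by TPM was similar in all libraries, with a Spearman rho of 0.78 to 0.94 over the 76 genes for the 10 pairs of libraries, given as a description since genes in a library are not independent.

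**Figure D1:**
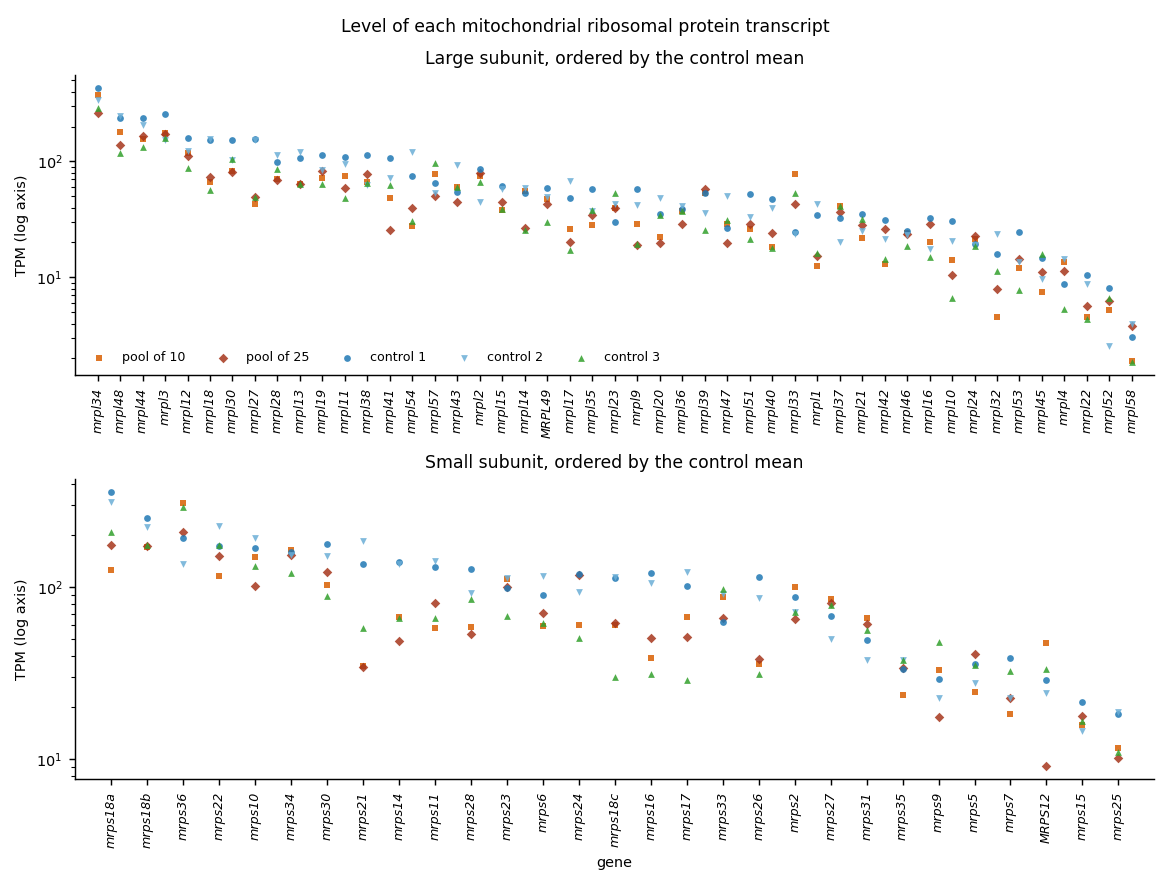
TPM (log axis) of each of the 76 members in the pool of 10, the pool of 25 and controls 1 to 3, with large-subunit symbols above and small-subunit symbols below, each ordered by the control mean. Control means span 2.97 TPM (mrpl58) to 353.8 TPM (mrpl34), and for many members the points of control 3 lie with those of the pools.

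Set against the 3 controls, both pools together had lower CPM for nearly the whole family. The median fitted log2 fold change of the members was -0.85, against -0.08 over all genes tested. Below 0 were 75 of 76 members, beside 8784 of the 16445 genes tested. No single member passed the adjusted threshold of 0.05 in edgeR's quasi-likelihood test with Benjamini-Hochberg adjustment, where 0% of all genes were called in either direction, and the smallest adjusted p among members was 0.464. At an unadjusted p under 0.05, 19 members were lower and 0 higher, beside 6.66% of all genes lower and 3.97% higher. DESeq2, run on the same counts, called mrps21 alone among the members (adjusted p = 0.0332), beside 0.407% of all genes called lower and 0.237% higher. With no scaling beyond library size the median of all genes shifted to 0.14 and that of the members to -0.58. On log2(TPM + 1) these medians were 0.36 and -0.28, so the distance of the members below all genes was -0.77, -0.72 and -0.63 on the 3 scales.

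Separation of the groups was partial. For 22 members both pools lay below all 3 controls, beside 14.9% of all genes, and for 0 members both lay above, beside 14.6%. The 14.9% varied with transcript length, by values given further on. A gap of at least 2-fold between the pools and every control was found for 0 members in either direction, beside 2.21% of all genes lower and 1.57% higher. In TPM, with no fold required, both pools lay below all 3 controls for 14 members, beside 7.48% of all genes. Both lay above for 3, beside 22.7%.

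The 6 members with the lowest fold change, among those averaging at least 10 CPM, were mrps21, mrpl32, mrpl1, mrpl27, mrps14 and mrps26. mrps21 (ENSDARG00000070985), the counterpart of bacterial S21, had 10.0 and 8.07 CPM in the pools of 10 and 25, against 49.1, 74.4 and 14.02 CPM in the controls. Both pools were below every control, with control 3 nearest to them, and the log2 fold change was -2.35 ± 0.67 (SE; edgeR adjusted p = 0.464). mrpl32 (ENSDARG00000060489), which in yeast is trimmed by the m-AAA protease before it joins the ribosome, had 3.38 and 5.88 CPM in those pools and 17.9, 30.8 and 7.79 CPM in the controls. Again no control overlapped the pools and control 3 was the closest, with a log2 fold change of -2.03 ± 0.66 (SE, edgeR adjusted p = 0.464). Only 25 and 43 reads in the pools of 10 and 25 and 45 in control 3 lie behind these values. mrpl1 (ENSDARG00000054606), whose bacterial counterpart forms the mobile L1 stalk that guides spent tRNA out, had 6.35 and 7.39 CPM in the pools and 29.5, 39.7 and 9.35 CPM in the controls. It showed the same order of libraries, at -1.94 ± 0.62 (SE, edgeR adjusted p = 0.464), with 47 and 54 reads in the pools and 54 in control 3. For mrps21 the reads were 74 and 59 in the pools of 10 and 25 and 81 in control 3. At such depths counting error limits the order of the pools and control 3 for mrps21, mrpl32 and mrpl1.

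The other three overlapped control 3. mrpl27 (ENSDARG00000032985), whose bacterial counterpart reaches towards the peptidyl transferase centre, had 17.0 and 15.6 CPM in the pools of 10 and 25, against 80.3, 84.4 and 15.4 CPM in the controls. mrps14 (ENSDARG00000068305), counterpart of a protein in the head of the bacterial small subunit, had 25.7 and 18.5 CPM in the pools and 95.4, 102 and 23.5 CPM in the controls. mrps26 (ENSDARG00000039719), a small-subunit protein without a bacterial counterpart, had 24.0 and 25.5 CPM in the pools and 125, 99.2 and 21.1 CPM in the controls. In all of them controls 1 and 2 were high and control 3 stood at the level of the pools. Their log2 fold changes were -1.88 ± 0.67, -1.74 ± 0.61 and -1.73 ± 0.66 in that order (SE; edgeR adjusted p = 0.464 each), and against control 3 alone, with the volume term, they were 0.08 for mrpl27, -0.09 for mrps14 and 0.23 for mrps26. Without control 3 the 6 lowest members had edgeR adjusted p-values of 0.00168 to 0.00597. In that fit 47 of 76 members and 12.8% of all genes were called lower, and pools and controls differed in reaction volume throughout.

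At the other end stood mrpl33, mrps31, mrps27, mrpl37, mrps36 and mrpl39. mrpl33, whose bacterial counterpart lies near the tRNA exit site, had 30.8 and 15.0 CPM in the pools of 10 and 25, against 15.0, 14.8 and 18.7 CPM in the controls. Only the pool of 10 was high, and the log2 fold change of both pools was 0.51 ± 0.45 (SE; edgeR adjusted p = 0.650). mrps31, a mitochondrion-specific protein of the small-subunit head, had 74.0 and 56.7 CPM in the pools and 69.0, 59.9 and 68.4 CPM in the controls, so that all controls lay between the pools. mrps27, a pentatricopeptide repeat protein of the small subunit, had 89.5 and 73.4 CPM in the pools and 100.3, 80.2 and 74.6 CPM in the controls. The fitted log2 fold changes of mrps31, mrps27, mrpl37, mrps36 and mrpl39 were between -0.13 and -0.01 with SEs of 0.37 to 0.50, and each turned positive with library size scaling and on the TPM scale. For these members the 95% interval of the log2 fold change ran at most from -1.25 to 0.99, so a change of 2-fold was within it for mrpl39.

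**Figure D2:**
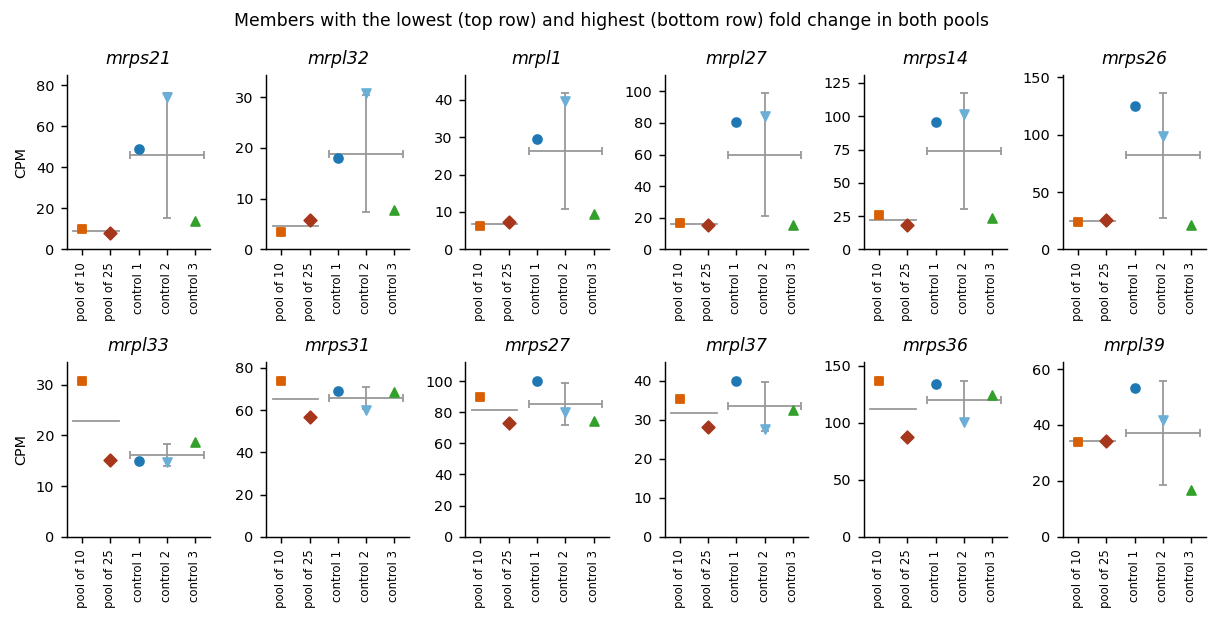
CPM in each library for the 6 members with the lowest (top row) and the 6 with the highest (bottom row) fitted fold change of both pools against controls; short lines are the pool means, longer lines with bars the control means ± SD (n = 3), and each axis starts at 0. In the top row controls 1 and 2 stand above the other 3 libraries, while in the bottom row mrps31 and mrps36 have all controls between the pool of 10 (highest) and the pool of 25 (lowest).

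Control 3 was the control that lay with the pools. Its log2 ratio to the mean of controls 1 and 2 had a median of -1.16 over the members, against -0.06 over all genes tested. It was below both other controls for 68 of 76 members, beside 42.5% of all genes. By the median deviation from the 5-library mean on the log2 scale, members stood at -0.36 (pool of 10) and -0.53 (pool of 25), against 0.75, 0.68 and -0.48 in controls 1 to 3. Controls 1 and 2 were thus high and the other 3 libraries low for the family. The highest of the 5 values of a member fell in control 1 for 37 members and in control 2 for 34.

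Control 3 also had the largest share of unmapped reads, so for this library the reaction volume and other features of its preparation cannot be told apart. Grouped by reaction volume instead, which was chosen after seeing the data, the 3 libraries at 1/8 volume lay below both libraries at 1/4 volume for 66 of 76 members, beside 27.7% of all genes. They lay above them for 1 member, mrpl33, beside 25.1% of all genes. The 27.7% also varied with transcript length, by values given further on. The members outside the first count were mrpl23, mrpl33, mrpl37, mrpl45, mrpl52, mrps9, MRPS12, mrps27, mrps31 and mrps36. In TPM the same counts were 37 members below, beside 11.8% of all genes, and 5 above, mrpl33, mrpl37, mrps27, mrps31 and mrps36, beside 43.6%.

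A term for the reaction volume takes up controls 1 and 2, so the fit then sets the pools against control 3 alone. The members' median log2 fold change of both pools was 0.06 in that fit, against 0.02 over all genes, with 35 of 76 members below 0. Again 0 members passed the adjusted threshold in edgeR's quasi-likelihood test, beside 0.0182% of all genes called lower and 0.0426% higher. Both pools lay below control 3 for 22 members, beside 36.7% of all genes, and above it for 29, beside 36.5%. With control 3 left out instead, 47 members were called lower and 0 higher by edgeR, beside 12.8% and 11.9% of the 17025 genes then tested, and the members' median was -1.13. In that comparison, pools and controls differ in reaction volume throughout, and the pools cannot be told apart from the volume. Leaving out control 1 or control 2 gave medians of -0.68 and -0.71 and 0 calls.

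**Figure D3:**
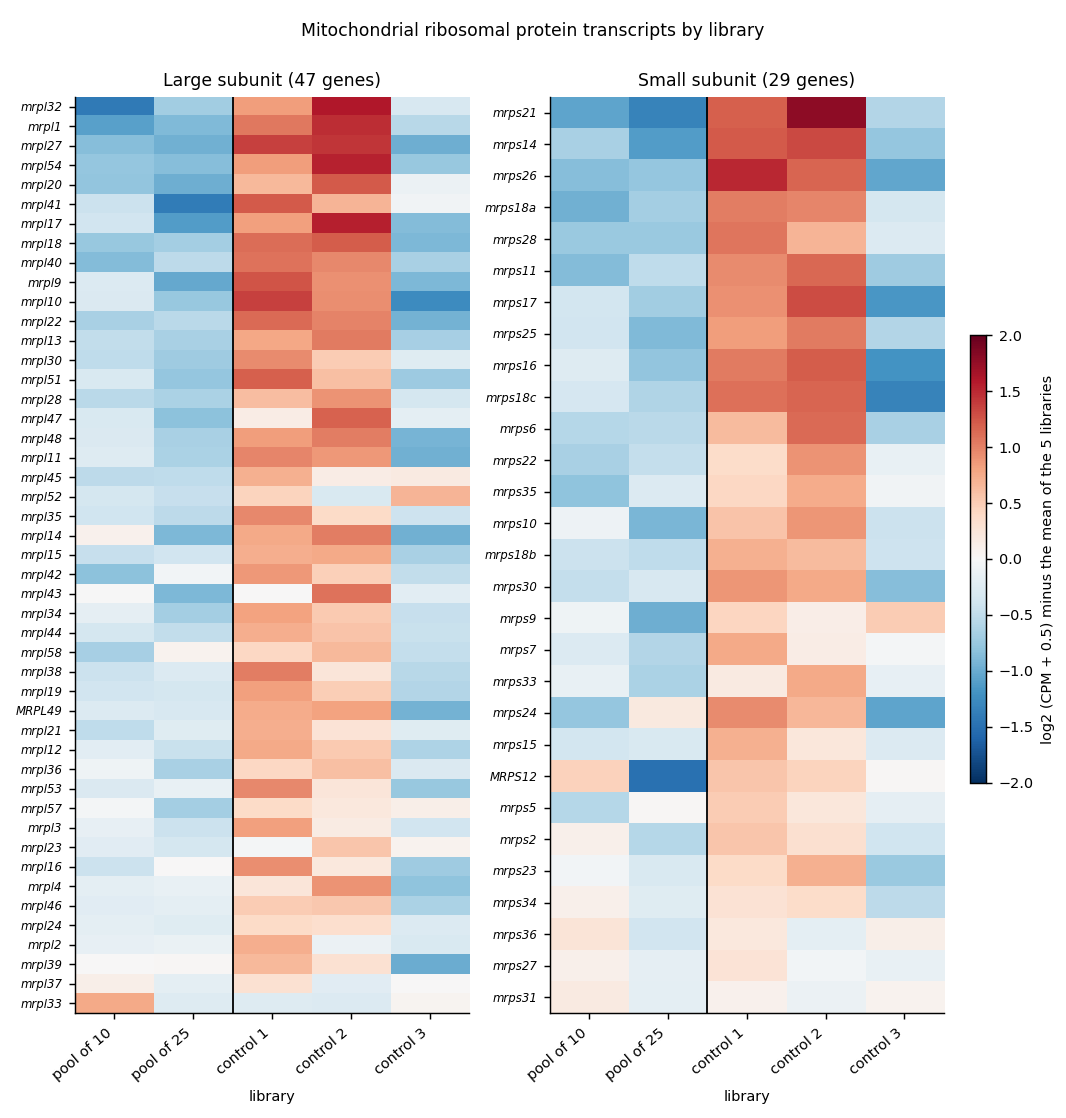
Level of each member in each library as log2(CPM + 0.5) minus its mean over the 5 libraries, for the 47 large-subunit and 29 small-subunit symbols, ordered by the fold change of both pools; the vertical line parts the pools (left) from the controls (right). Controls 1 and 2 are red for most members, while control 3 is blue like the pools, with medians of 0.75, 0.68 and -0.48.

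**Figure D4:**
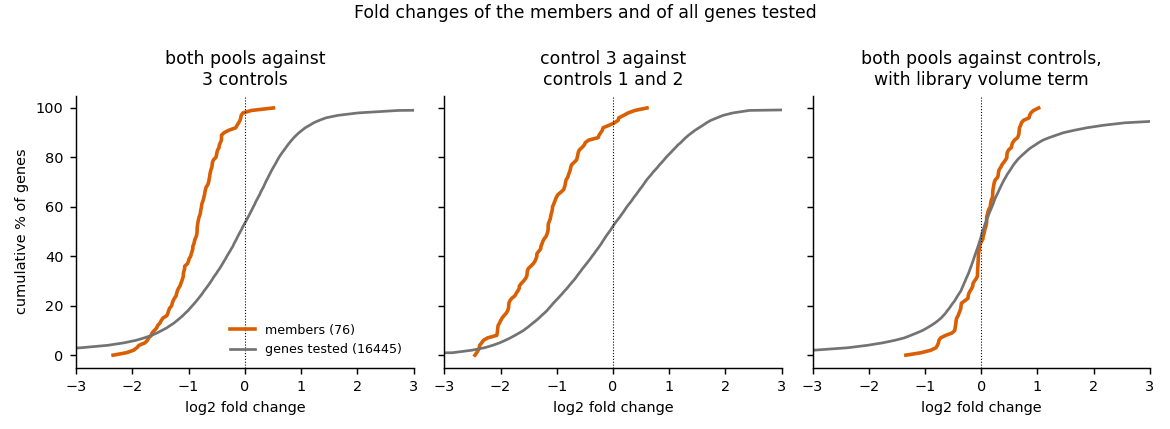
Cumulative percentage of the 76 members and of the 16445 genes tested against log2 fold change, for both pools against 3 controls, for control 3 against controls 1 and 2, and for both pools with the library volume term. The members' medians are -0.85, -1.16 and 0.06, so their curve is left of that of all genes in the first and second panels and crosses it near 0 in the third.

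Taken alone, the pool of 10 had a median log2 fold change of -0.84 over the members, against -0.11 over all genes. Below 0 were 69 members, beside 9034 of the 16445 genes tested. edgeR's quasi-likelihood test called 0 members at the adjusted threshold, beside 0% of all genes. DESeq2 also called 0, beside 0.0365% of all genes lower and 0.0182% higher. Before adjustment, at a p under 0.05, mrpl32 and mrps21 were lower, beside 1.8% of all genes lower, and 0 members were higher, beside 1.42%. The 6 lowest were mrpl32, mrps21, mrpl1, mrpl27, mrps26 and mrps18a, with log2 fold changes between -2.48 and -1.64, SEs between 0.76 and 1.00 and an edgeR adjusted p of 0.951 each. mrps18a had 64.7 CPM in the pool of 10, against 259, 248 and 98.8 CPM in the controls, so that this pool lay below every control. The highest were mrpl33, mrps36, mrps31, MRPS12, mrpl37 and mrps27. Among these, mrpl33 with 30.8 CPM, mrps36 with 137 CPM and mrps31 with 74.0 CPM in the pool of 10 lay above every control, by less than 2-fold, against control maxima of 18.7, 134 and 69.0 CPM.

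The pool of 25 had a median of -0.96 over the members, against -0.12 over all genes. Below 0 were all 76 members, beside 9048 of the 16445 genes tested. Again 0 members passed the adjusted threshold in edgeR's quasi-likelihood test, beside 0% of all genes. DESeq2 also gave 0, beside 0.0426% of all genes lower and 0.0122% higher. Before adjustment, at a p under 0.05, mrpl41, mrps21 and MRPS12 were lower, beside 1.84% of all genes lower, and 0 members were higher, beside 1.22%. The 6 lowest were mrps21, mrpl41, mrps14, MRPS12, mrpl17 and mrpl27, with log2 fold changes between -2.51 and -1.95, SEs between 0.80 and 1.01 and an edgeR adjusted p of 0.913 each. mrpl41, a mitochondrion-specific protein of the large subunit, had 8.07 CPM in the pool of 25, against 52.4, 35.7 and 20.9 CPM in the controls. mrpl17, whose bacterial counterpart lies by the exit tunnel, had 9.72 CPM in this pool and 38.4, 64.3 and 11.6 CPM in the controls. This pool was the lowest library for both genes. The highest were mrpl33, mrpl39, mrps5, mrps27, mrps31 and mrps24, with 15.0, 34.2, 33.9, 73.4, 56.7 and 37.0 CPM in the pool of 25 in that order. Of these, mrps27 and mrps31 lay below every control, and the other 4 lay inside the range of the controls, whose values for mrpl39 were 53.1, 41.9 and 16.8 CPM.

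Between the pools there was 1 library each, and the spread was taken from the controls. The pool of 25 had the lower value for 48 of 76 members, beside 49.2% of all genes. The median log2 fold change of the pool of 25 against the pool of 10 was -0.14, against 0.00 over all genes. MRPS12, whose bacterial counterpart S12 lines the decoding centre, had 4.11 CPM in the pool of 25 and 17.4 CPM in the pool of 10, while the controls had 18.6, 17.2 and 12.6 CPM. The pool of 25 was thus the single low library for this gene, at a log2 fold change of -2.08 ± 0.90 (SE). Its unadjusted p of 0.0420 was the only one under 0.05 among the members, beside 0.334% of all genes lower and 0.456% higher, and its adjusted p in edgeR's quasi-likelihood test was 1. edgeR and DESeq2 both called 0 members, beside 0% of all genes.

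The other low members in the pool of 25 against the pool of 10 were mrpl33, mrpl14, mrpl41, mrpl43 and mrps9, with log2 fold changes of -1.03 to -0.89. mrpl14, the counterpart of a protein at the subunit interface in bacteria, had 7.80 CPM in the pool of 25 and 15.9 CPM in the pool of 10. The highest were mrps24, mrpl32, mrps5, mrps35, mrpl16 and mrps11, at 0.99 to 0.36. mrps24, the mitochondrial form of bacterial S3 at the mRNA entry, had 37.0 CPM in the pool of 25 and 18.6 CPM in the pool of 10, and the controls had 62.4, 51.0 and 15.2 CPM. The SEs of these 11 members were 0.75 to 1.07, and the 95% interval of each fold change held 0.

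By subunit, the 47 large-subunit symbols had a median log2 fold change of -0.85 and the 29 small-subunit symbols one of -0.87 in both pools against controls. At an unadjusted p under 0.05, 11 of the large-subunit and 8 of the small-subunit symbols were lower, beside 6.66% of all genes. mrps18a was among the 8. The 29 large-subunit proteins with a bacterial counterpart had a median of -0.90 and the 20 without one in the bacterial large subunit -0.82, where mrps18a and mrps30 were counted with the large subunit as in the human particle. For the small subunit these medians were -0.89 over 17 members and -0.69 over 9. Differences between these medians were not tested.

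Within the large subunit, the 5 members of the stalk and factor-binding region, where translation factors dock, had a median of -0.96. mrpl12, the stalk protein that contacts elongation factors in bacteria, had 74.8 and 63.4 CPM in the pools of 10 and 25, against 145, 124 and 55.7 CPM in the controls. mrpl10, the base to which it binds, had 6.62 and 4.65 CPM in the pools and 21.9, 16.1 and 3.12 CPM in the controls. For both genes control 3 was the lowest of the 5 libraries. Control 3 stood at a median log2 ratio of -1.89 to the other controls over these 5 members, and with the volume term their median was 0.55.

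The 8 members of the central protuberance had a median of -0.97. In human mitochondria this crown holds a tRNA in place of the 5S RNA of bacteria. At an unadjusted edgeR p under 0.05, 3 of the 8 were lower, beside 6.66% of all genes and 19 of all 76 members. mrpl18, the relative of the bacterial protein that binds 5S RNA, had 27.2 and 28.5 CPM in the pools of 10 and 25, against 99.95, 108 and 24.6 CPM in the controls. mrps30 had 76.6 and 85.7 CPM in the pools and 198, 180 and 59.0 CPM in the controls. Control 3 was below both pools for these genes, and the median log2 ratio of control 3 to the other controls over the 8 members was -1.67.

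The 6 members listed here for the peptide exit tunnel, mrpl22, mrpl23, mrpl24, mrpl44, mrpl45 and mrpl47, had a median of -0.87. The 6 of the decoding site and mRNA path had one of -0.61. In either list 0 were lower at an unadjusted edgeR p under 0.05, beside 6.66% of all genes. The tunnel list left out mrpl4 and mrpl17, whose bacterial counterparts also lie at the tunnel. Their log2 fold changes were -0.49 and -1.55, with unadjusted edgeR p-values of 0.478 and 0.0414. Both pools lay below all controls for 3 of the tunnel members and 2 of the decoding members, beside 14.9% of all genes. mrpl45, which in human mitochondria ties the tunnel exit to the inner membrane, had 5.40 and 5.47 CPM in the pools of 10 and 25, against 13.4, 8.91 and 9.17 CPM in the controls. mrps9, whose bacterial counterpart contacts the peptidyl-site tRNA, had 54.0 and 29.1 CPM in the pools and 77.8, 63.4 and 81.9 CPM in the controls. For these 2 members both pools lay below all 3 controls, and control 3 stood inside or above the range of the other controls. mrps7, the counterpart of the protein that starts assembly of the bacterial small-subunit head, had 16.5 and 13.1 CPM in the pools and 34.03, 22.3 and 19.4 CPM in the controls, also without overlap. The other decoding members overlapped. mrps2 had 69.2 and 43.4 CPM in the pools and 95.2, 81.2 and 48.8 CPM in the controls, and mrps5 had 22.3 and 33.9 CPM in the pools and 47.5, 39.1 and 29.2 CPM in the controls. For MRPS12 the pool of 10, and for mrps24 both pools, lay inside the range of the controls given above. The median log2 ratio of control 3 to the other controls was -0.75 for the tunnel members and -0.52 for the decoding members.

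Transcript length was read from the deposited tables as count divided by TPM, scaled to 1 at the median of the genes tested, a measure chosen after seeing the data. The members were short, with a median relative length of 0.476 against 0.972 over 14291 genes that had a length, and 46 of 76 fell in the shortest of 5 equal bins of those genes. Fold changes followed length across all genes. From the shortest bin to the longest, the median log2 fold change of both pools over all genes was -0.85, -0.46, -0.08, 0.28 and 0.52. The same medians for control 3 against controls 1 and 2 were -1.005, -0.64, -0.10, 0.42 and 0.90, and with the volume term those of both pools were between 0.00 and 0.07.

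In the shortest bin the 46 members had a median of -0.94 for both pools, beside -0.85 over the 2859 genes of that bin, and -1.32 for control 3, beside -1.005. In the second bin the 19 members had -0.74 for both pools, beside -0.46, and -1.11 for control 3, beside -0.64. The third bin held 6 members, with -0.39 for both pools, beside -0.08, and -0.88 for control 3, beside -0.10. Only 5 members were longer. Of these mrps25, mrps15 and mrpl22 lay in the longest bin, where all genes had a median of 0.52. Their relative lengths, as count divided by TPM, were 3.21, 2.76 and 2.75. All of them had lower mean CPM in the pools than in the controls. For mrps15 the values were 48.1 and 49.8 CPM in the pools of 10 and 25, against 102, 72.6 and 50.9 CPM in the controls. mrps25, a mitochondrion-specific protein of the small subunit, had 41.2 and 28.9 CPM in the pools of 10 and 25, against 96.2, 111 and 35.7 CPM in the controls. mrpl22 had 14.1 and 15.2 CPM in the pools and 49.1, 44.7 and 11.3 CPM in the controls. All of these genes were low in control 3 too. By CPM, the 1/8 volume libraries lay below those at 1/4 volume for 40 of 46 members in the shortest bin, beside 59.4% of genes. In the second bin this held for 18 of 19 members, beside 49.5% of genes, and in the third for 4 of 6, beside 24.3%. In the fourth bin it was 1 of 2 members, beside 9.45%, and in the longest 3 of 3, beside 6.02%. Spearman's rho between relative length and the fold change of both pools was 0.24 over the 76 members and 0.54 over the 14291 genes, given as descriptions across genes that share the same libraries. Both pools lay below all controls in CPM for 15 of 46 members in the shortest bin, beside 26.65% of its genes. In the second bin this held for 5 of 19, beside 21.8%, and in the third for 0 of 6, beside 15.25%. In the fourth bin it was 1 of 2, beside 7.0%, and in the longest 1 of 3, beside 4.20%. The part of length or of reaction volume in the members' difference was not tested.

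**Figure D5:**
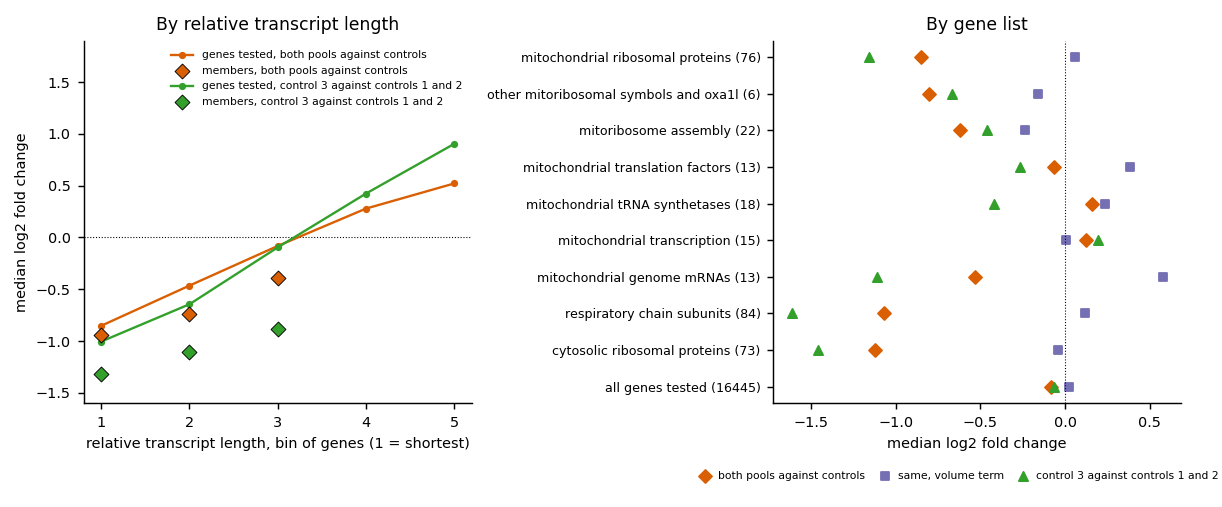
Left, median log2 fold change by bin of relative transcript length (5 bins of equal gene number) for all genes tested (lines) and for members (diamonds, bins with 5 or more members), for both pools against controls and for control 3 against controls 1 and 2; right, median log2 fold change of each gene list, with its number of genes tested, for both pools against controls, the same with the volume term, and control 3 against controls 1 and 2. Medians over all genes climb with length, from -0.85 in the shortest bin to 0.52 in the longest for the pools, and the mitochondrial ribosomal proteins stand at -0.85, 0.06 and -1.16 in the right panel.

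Genes that work with the mitochondrial ribosome gave mixed values. The ribosomal proteins dap3, ptcd3, aurkaip1, chchd1 and gadd45gip1 carry other symbols, and oxa1l encodes the insertase that binds the ribosome at the inner membrane. All 6 had fold changes below 0 in both pools, with a median of -0.80. Of them 0 had an unadjusted edgeR p under 0.05, beside 6.66% of all genes lower and 3.97% higher. aurkaip1, a small-subunit protein in human mitochondria, had 154 and 130 CPM in the pools of 10 and 25, against 369, 370 and 132 CPM in the controls. dap3, a GTP-binding protein of the small subunit, had 56.6 and 68.4 CPM in the pools and 78.3, 84.7 and 72.0 CPM in the controls. The first repeated the pattern of the members, with control 3 among the pools, and in the second all controls were above the pools.

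Assembly factors and rRNA modifiers had a median of -0.62 over 22 genes, of which 20 were below 0 and 2 were lower at an unadjusted p under 0.05, beside 6.66% of all genes. Translation factors had a median of -0.07 over 13 genes, 8 below 0, with 1 lower and 1 higher at that level, beside 6.66% and 3.97% of all genes, so the counts in this list were near the background. The lower was mtif2, the initiation factor, with 18.2 and 22.6 CPM in the pools of 10 and 25, against 31.1, 67.9 and 49.9 CPM in the controls. The higher was gfm2, which recycles ribosomes, with 19.99 and 19.7 CPM in the pools and 7.74, 4.79 and 10.0 CPM in the controls. For both genes the pools and controls did not overlap, control 3 included, and the relative lengths were 1.22 and 1.29. Mitochondrial aminoacyl-tRNA synthetases with the amidotransferase had a median of 0.16 over 18 genes, with 0 at an unadjusted p under 0.05, and genes of mitochondrial transcription and RNA processing had 0.13 over 15 genes, with 1 lower. None of these lists held a gene past the adjusted threshold in edgeR's quasi-likelihood test. The lists also differed in median relative length. It was 0.73 for assembly factors, 0.81 for translation factors, 0.96 for synthetases and 1.065 for transcription genes. For the members it was 0.476, and for the proteins with other symbols and oxa1l 0.756. The part of length in the differences between these lists was not tested.

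The nuclear respiratory chain subunits, many of which work with products of this ribosome, had a median of -1.07 over 84 genes, and cytosolic ribosomal proteins, whose counts are uncertain where near-identical copies share reads, had -1.12 over 73. Control 3 stood at medians of -1.61 and -1.46 against the other controls for these families, and with the volume term their medians in the pools were 0.12 and -0.04. The 13 mRNAs of the mitochondrial genome had -0.53 in both pools, -1.11 in control 3 and 0.58 with the volume term. Median relative length was 0.35 for the respiratory chain subunits, 0.31 for the cytosolic ribosomal proteins and 0.40 for these mRNAs. Summed CPM of the mitochondrial mRNAs mt-nd1, mt-co1, mt-cyb and mt-atp6 was 3726 (pool of 10) and 4090 (pool of 25). The controls had 5314, 5635 and 2072 CPM, so the sums of the pools lay between control 3 and the other controls. Single genes differed. Both pools held that place for mt-cyb and mt-atp6. For mt-co1 both lay above every control, with 2299 and 2635 CPM against 2028, 2097 and 1278 CPM. For mt-nd1 the pool of 10, at 226 CPM, lay between controls 1 and 2, at 223 and 234 CPM. Markers of the enveloping layer, which covers the blastula, summed to 1183 and 1119 CPM in the pools and 547, 2354 and 1523 CPM in the controls, which did not follow the reaction volume. Those of the yolk syncytial layer, mxtx2, gata6 and afp4, summed to 159 and 161 CPM in the pools. The controls had higher sums, 335.5, 510 and 209 CPM. The largest part was mxtx2, with 151 and 156 CPM in the pools, against 329.5, 455.5 and 189 CPM in the controls. Counts were found everywhere for 3 of 4 entries. For gata6 and the afp4 entry with counts everywhere, the pools were not both below all controls. The other afp4 entry was at 0 in both pools and in controls 1 and 3. Markers of the germ plasm, nanos3, ddx4, dazl, buc and tdrd6, summed to 1437 and 1273 CPM in the pools, with all 5 detected everywhere. The controls had lower sums, 1106, 844 and 911 CPM. The largest part was buc, with 1039 and 918 CPM in the pools, against 646, 381 and 600 CPM in the controls. Both pools also lay above all controls for tdrd6. For nanos3 and dazl the log2 fold changes of both pools were -1.085 and -0.80, and for ddx4 the pools overlapped the controls. The part of these cell types in the members' difference was not tested.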

How the data were processed

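RNA was measured by sequencing of total RNA from whole embryos in 5 libraries (Nextera XT, per the labels' protocols). The authors deposited whole-number counts per gene and a second table per gene, which was read as TPM because each of its columns sums to nearly the same total, as TPM do. Per the submitters' processing notes, bcl2fastq 2.20 was used and the genome build was danRer11. Which aligner and counter were used is not given in the sources used here. Entries naming no gene took 33.9% and 26.7% of reads in the pools of 10 and 25 and 27.1%, 32.0% and 53.8% in controls 1 to 3, and were left out. Counting error is smallest in controls 1 and 2, the deepest libraries.

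Counts were scaled by TMM and tested with edgeR 4.0.16 (R 4.3.3) after its expression filter at a minimum count of 10, by the quasi-likelihood test, with p-values adjusted by Benjamini-Hochberg over 16445 genes and a threshold of 0.05. Both pools were set against the controls in a 2-group fit with 3 residual degrees of freedom. There any difference between the pools, which had different guides, counts as scatter within a group. Single pools came from a 3-group fit with 2 residual degrees of freedom, in which each pool is assumed to vary like the controls. Each SE given was worked out as the absolute log2 fold change divided by the square root of edgeR's F statistic. The 95% intervals were built from these SEs. Log ratios between libraries used CPM + 0.5, and relative length needed at least 20 counts and 2 TPM. Alternatives were DESeq2 1.42.0, other scaling, no filter, limma 3.58.1 on log2(TPM + 1) or log2(TPM + 0.1), a volume term and leaving out each control. Members were matched to gene names for 75 of 76 symbols. The members and lists were chosen with earlier results of these data known. Named members were the 8 highest and 6 lowest by control TPM, and in each comparison any past the threshold. Where fewer than 5 passed, the 6 lowest and 6 highest by fold change among those averaging at least 10 CPM were also named. Members of the structural groups were named by role. With the lengths, mrps25, mrps15 and mrpl22 were chosen after their values were seen.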

Additional observations from a re-analysis of the deposited data

How the results depend on the processing

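The direction of the members' median held under every scaling, filter and left-out control, and reached 0.058 for both pools, 0.14 for the pool of 10 and -0.036 for the pool of 25 with the volume term; the medians of the large and small subunit were then 0.099 and -0.056. Members called in both pools numbered 1 with DESeq2, 1 without a filter and 0 to 47 leaving out 1 control. Both pools lay below all controls for 14 members in TPM and for 22 to 70 leaving out 1 control, beside 7.48% and 17.8% to 33.4% of all genes, and above for 3 and for 0 to 1, beside 22.7% and 17.6% to 31.2%. Medians on log2(TPM + 1) and log2(TPM + 0.1) were -0.20 and -0.21 for proteins with other symbols and oxa1l, 0.42 and 0.43 for translation factors, 0.69 and 0.73 for synthetases, -0.081 and -0.083 for assembly factors, and 0.50 and 0.53 for transcription. With library size only the last was 0.36. With the volume term, proteins with other symbols had -0.16, translation factors 0.38 and assembly factors -0.23, and translation factors had -0.41 to -0.10 leaving out 1 control. The fold change of szrd1 passed the threshold at -2.64 with DESeq2, -2.64 without a filter and -2.84 with the volume term, and leaving out 1 control gave -2.76 to -2.53, passing it without control 3.

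With the volume term, 35 of 76 members had a log2 fold change of both pools below 0, against 75 without it, so many signs reversed. With library size only 69 were below 0, and on log2(TPM + 1) 59 were. Single members were followed across settings only if named as lowest or highest, and for single pools only if lowest. Among the members followed, signs reversed as listed here. With the volume term, both pools gave 0.082 for mrpl27, 0.23 for mrps26, 0.13 for mrps27 and 1.02 for mrpl39, the pool of 10 gave 0.14 for mrpl27 and 0.19 for mrps26, and the pool of 25 gave 0.018 for mrpl27. With library size only, mrps31, mrps27, mrpl37, mrps36 and mrpl39 had 0.20, 0.17, 0.14, 0.11 and 0.15, on log2(TPM + 1) 0.42, 0.37, 0.36, 0.36 and 0.58, and on log2(TPM + 0.1) 0.43, 0.38, 0.37, 0.36 and 0.60. Leaving out 1 control gave -0.075 to 0.024 for mrps31, -0.16 to 0.070 for mrps27, -0.20 to 0.075 for mrpl37 and -0.49 to 0.21 for mrpl39. The cause was not tested. No paired analysis was possible because each pool has 1 library. Depth limits the lowest members, such as mrpl58 and mrpl52, whose counts start at 4.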
